A study of Danio rerio with 9 samples.

Results

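Genes through which the tumour suppressor p53 arrests or kills cells were followed in zebrafish embryos that lack kdm4aa or kdm4ab. They were mdm2, cdkn1a, gadd45a (ENSDARG00000043581), ccng1, sesn2, phlda3, rps27l, bbc3 and pmaip1. They were chosen by name, as 9 of the 32520 genes in the deposited count table, and all 9 passed the filter on low counts. Earlier results of these data were known at that choice, so comparisons of the 9 with all genes are descriptive. The study sequenced poly-A RNA of embryos in 9 libraries, with 3 libraries for each of the genotypes wild type, kdm4aa knockout and kdm4ab knockout. kdm4aa and kdm4ab encode KDM4 enzymes, which take methyl groups off lysines of histone H3. The study set out from delayed development and more apoptosis in kdm4aa knockout embryos. The sources used here do not give the knockout alleles, the strain, the stage of the embryos or the number pooled per library.

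p53 is a transcription factor that is held at a low level by Mdm2, the ubiquitin ligase that marks it for destruction. After DNA damage or other stress p53 escapes this control and switches on its targets, mdm2 among them, so that the loop closes on itself. Some targets hold the cell cycle, some slow growth signalling, and some trigger death at the mitochondrion. In zebrafish embryos p53 can start this programme once the zygotic genome is active, and it is a common response to loss of genes needed for early development.

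Levels are in CPM, the counts of a gene as a rate of its scaled library, and differences are log2 fold changes, with standard errors (SE), from edgeR's quasi-likelihood test. Calls are at adjusted p below 0.05, with the adjustment made across all tested genes. Library totals ran from 27894551 to 46156237 counts, and the members' counts from 128 to 61815. kdm4ab knockout replicate 2 stood apart, with 14247 genes counted against 22025 to 23019 in the other 8 libraries. Its log2 CPM correlated with those of the other kdm4ab knockout libraries at 0.837 and 0.848 across genes. All other pairs of replicates reached at least 0.983. With it the biological coefficient of variation over all genes was 47.5%, and without it 13.1%, so the changes of the 9 genes and the counts of calls are given from both fits. kdm4ab stood at 127, 168 and 121 CPM in wild type, at 172, 148 and 154 CPM in the kdm4aa knockout, and at 2.38, 0 and 2.22 CPM in the kdm4ab knockout. kdm4aa stood at 18.1, 20.6 and 18.5 CPM in wild type, at 17.9, 14.7 and 17.2 CPM in the kdm4aa knockout, and at 13.9, 0 and 15.8 CPM in the kdm4ab knockout. The count of kdm4aa therefore does not check the label of its own knockout (log2 −0.20, adjusted p 0.961), while that of kdm4ab fell where it was targeted (log2 −6.47, adjusted p 0.00438).

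In the kdm4aa knockout, 3 of the 9 genes rose against wild type and none fell. The death gene bbc3 rose 4.41-fold, gadd45a 4.23-fold and sesn2 2.81-fold. Over all genes, 4.33% were called higher in this comparison and 8.88% were called in either direction. The median log2 fold change of the 9 genes was 1.03, and that of all genes −0.00. In 7 of the 9 genes every knockout library lay above every wild-type library, a pattern that 28.7% of all genes showed. When kdm4ab knockout replicate 2 was left out, the shared estimate of spread was smaller and 7 genes were called higher, against a background of 23.3%. Of these, 6 changed by more than 1.5-fold by edgeR's test against that fold (glmTreat), which 7.89% of all genes passed with a higher level.

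In the kdm4ab knockout, 7 of the 9 genes rose against wild type, led by gadd45a at 13.0-fold and cdkn1a at 8.28-fold. They were mdm2, cdkn1a, gadd45a, phlda3, rps27l, bbc3 and pmaip1, and each of them was higher in every knockout library than in any wild-type library. The count was 2 without wild-type replicate 3, 4 without wild-type replicate 2 and 3 with only the compared groups in the fit, and the calls of gadd45a and cdkn1a held under all of these. Over all genes, 8.97% were called higher, 17.0% were called in either direction, and 17.9% were higher in every library. The median log2 fold change of the 9 genes was 1.62, and that of all genes −0.03. Without replicate 2 the 7 were called higher again and ccng1 was called lower, against backgrounds of 25.3% and 24.2%. All 7 passed the test against a 1.5-fold change, which 11.1% of all genes passed with a higher level. Both comparisons use the same 3 wild-type libraries, so they are not independent of each other. In whole embryos, more cells that express a gene and more RNA of it per cell cannot be told apart.

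**Figure D1:**
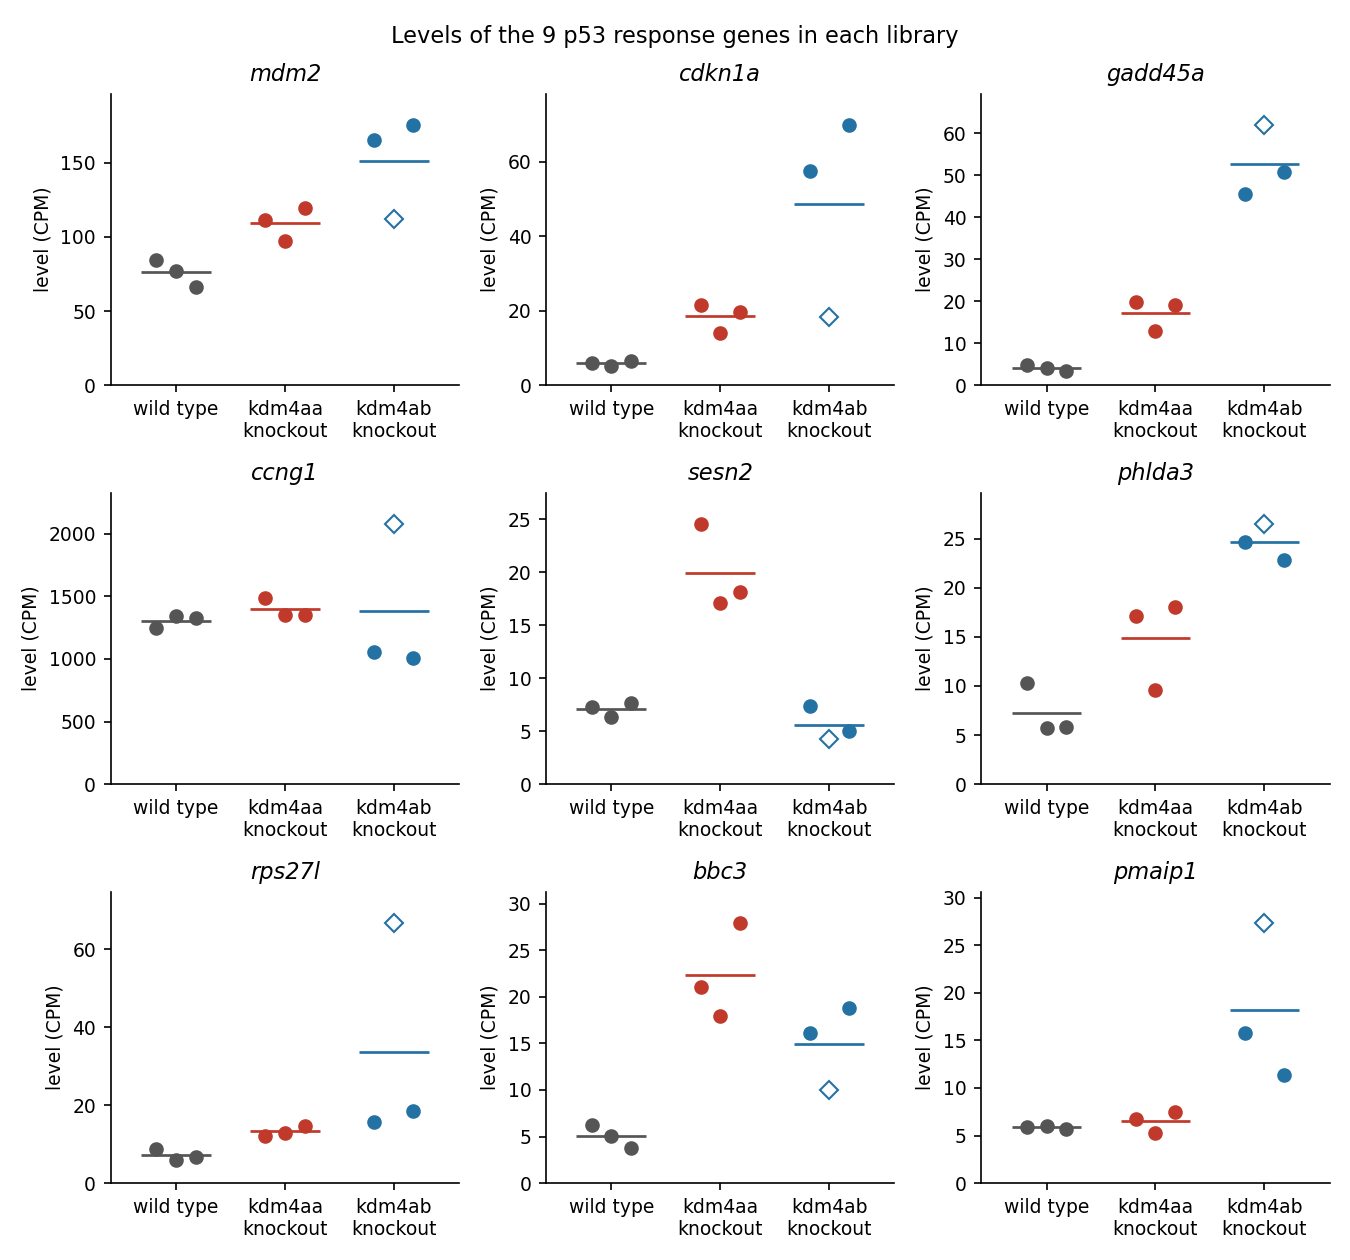
Level of each gene in CPM (vertical axis, from 0) in the 9 libraries, with a line at each group's mean. The open diamond is kdm4ab knockout replicate 2. cdkn1a and gadd45a step up from wild type to the kdm4aa knockout and again to the other kdm4ab knockout libraries, whereas sesn2 is high only in the kdm4aa knockout libraries.

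The feedback regulator mdm2 (ENSDARG00000033443) stood at 84.5, 77.2 and 66.5 CPM in the wild-type libraries. It stood at 111, 97.6 and 119 CPM in the kdm4aa knockout, and at 165, 112 and 176 CPM in the kdm4ab knockout. Every library of either knockout lay above the highest wild-type library, and kdm4ab knockout replicate 2 lay within the range of the kdm4aa knockout. The log2 fold change of the kdm4aa knockout was 0.52 (SE 0.193, adjusted p 0.15), and 0.53 with an adjusted p of 0.000245 without kdm4ab knockout replicate 2. mdm2 rose in the kdm4ab knockout by 0.99 (SE 0.194, adjusted p 0.0114), and by 1.17 without replicate 2 (adjusted p 9.41e-08). The call on all libraries was lost without wild-type replicate 3 (adjusted p 0.0652). It was also lost with the compared groups alone and by glmTreat.

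mdm4 encodes a partner of Mdm2 that also restrains p53. It stood at 70.5, 105 and 76.0 CPM in wild type, at 138, 110 and 114 CPM in the kdm4aa knockout, and at 106, 65.0 and 98.7 CPM in the kdm4ab knockout. The kdm4aa knockout lay above wild type in all its libraries, by 0.53 (SE 0.229, adjusted p 0.226), and was called without kdm4ab knockout replicate 2 (adjusted p 0.00219). The kdm4ab difference was 0.11 (95% interval −0.42 to 0.63, adjusted p 0.787), and 0.30 without replicate 2 (adjusted p 0.0868).

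Among the arrest genes, cdkn1a (ENSDARG00000076554) encodes p21, which blocks the kinases that drive the cell cycle. It stood at 5.86, 5.28 and 6.45 CPM in wild type, at 21.6, 14.1 and 19.8 CPM in the kdm4aa knockout, and at 57.5, 18.2 and 69.9 CPM in the kdm4ab knockout. No knockout library reached down to the wild-type range, and kdm4ab knockout replicate 2 stood apart from the other kdm4ab knockout libraries, within the range of the kdm4aa knockout. Its log2 fold change in the kdm4aa knockout was 1.66 (SE 0.440, adjusted p 0.0528), which was not called, and 1.66 with an adjusted p of 1.33e-07 without kdm4ab knockout replicate 2. cdkn1a rose in the kdm4ab knockout by 3.05 (SE 0.462, adjusted p 0.00378), and by 3.44 without replicate 2 (adjusted p 4.05e-11), a 10.9-fold difference.

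gadd45a, a growth arrest gene that DNA damage induces in mammals, had the largest kdm4ab knockout change of the 9 genes, in both fits. Its levels were 4.79, 4.17 and 3.26 CPM in wild type, at 19.8, 12.9 and 19.0 CPM in the kdm4aa knockout, and at 45.5, 62.1 and 50.7 CPM in the kdm4ab knockout. The groups formed 3 ranges without overlap, and replicate 2 of the kdm4ab knockout was the highest library of all. gadd45a was up against wild type by 2.08 with kdm4aa lost (SE 0.244, adjusted p 0.00176) and by 3.70 with kdm4ab lost (SE 0.260, adjusted p 0.000175). Without kdm4ab knockout replicate 2 these values were 2.09 and 3.57. A different gene under the same symbol, ENSDARG00000104571, had a mean of 36.8 counts per library against 954 for the gadd45a gene described here.

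ccng1 (ENSDARG00000076667), cyclin G1, is a p53 target that feeds back on Mdm2 in mammals. It stood at 1246, 1340 and 1322 CPM in wild type, at 1487, 1346 and 1352 CPM in the kdm4aa knockout, and at 1057, 2078 and 1009 CPM in the kdm4ab knockout. Replicate 2 of the kdm4ab knockout was the highest library and the other 2 of its group were the lowest of all 9. With all libraries no difference from wild type was called, at 0.10 in the kdm4aa knockout (95% interval −0.50 to 0.70, adjusted p 0.902) and at 0.08 in the kdm4ab knockout (95% interval −0.51 to 0.68, adjusted p 0.855). Without replicate 2 the sign turned in the kdm4ab knockout, where ccng1 was called lower at −0.33 (SE 0.0784, adjusted p 0.00211), and the kdm4aa value stayed at 0.10 (adjusted p 0.244).

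Of the targets that slow growth signalling, sesn2 (ENSDARG00000070012) encodes sestrin 2, which restrains the growth kinase complex mTORC1 under stress. It stood at 7.31, 6.31 and 7.67 CPM in wild type, at 24.6, 17.1 and 18.1 CPM in the kdm4aa knockout, and at 7.34, 4.30 and 5.06 CPM in the kdm4ab knockout. The kdm4aa knockout libraries lay above all others, and the kdm4ab knockout range overlapped the wild-type range from below. sesn2 rose in the kdm4aa knockout by 1.49 (SE 0.270, adjusted p 0.0127), and by 1.49 with an adjusted p of 1.7e-06 without kdm4ab knockout replicate 2. This call was lost without any 1 of the wild-type replicates 1, 2 and 3 or the kdm4aa knockout replicates 1 and 3, with adjusted p of 0.067, 0.0713, 0.0636, 0.0728 and 0.05 in that order. Against wild type the kdm4ab knockout differed by −0.35 (95% interval −0.96 to 0.26, adjusted p 0.404), and by −0.19 without replicate 2 (95% interval −0.60 to 0.22, adjusted p 0.45).

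phlda3 (ENSDARG00000037804) encodes a membrane-binding protein that competes with the survival kinase Akt in mammals. It stood at 10.3, 5.77 and 5.81 CPM in wild type, at 17.1, 9.59 and 18.0 CPM in the kdm4aa knockout, and at 24.7, 26.5 and 22.8 CPM in the kdm4ab knockout. Replicate 2 of the kdm4aa knockout fell inside the wild-type range, and the kdm4ab knockout lay above both other groups. The kdm4aa knockout differed from wild type by 1.04 (SE 0.318, adjusted p 0.0881), called without kdm4ab knockout replicate 2 (adjusted p 0.00105). phlda3 rose in the kdm4ab knockout by 1.76 (SE 0.324, adjusted p 0.00864), and by 1.71 without replicate 2 (adjusted p 1.76e-05). The call was lost without wild-type replicate 3 (adjusted p 0.0508).

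rps27l (ENSDARG00000100513) encodes a variant of a ribosomal protein of the small subunit that binds Mdm2 in mammals. It stood at 8.68, 6.05 and 6.71 CPM in wild type, at 12.1, 12.9 and 14.8 CPM in the kdm4aa knockout, and at 15.6, 66.8 and 18.5 CPM in the kdm4ab knockout. The 3 groups did not overlap, and replicate 2 of the kdm4ab knockout was far above every other library. The kdm4aa knockout differed by 0.89 (SE 0.514, adjusted p 0.381), called without kdm4ab knockout replicate 2 at 0.90 (adjusted p 0.00012). rps27l rose in the kdm4ab knockout by 2.23 (SE 0.532, adjusted p 0.0234), which without replicate 2 came to 1.25 (adjusted p 7.81e-06), so that this library carried much of the size. The call on all libraries was lost without any 1 of the wild-type replicates 1, 2 and 3 (adjusted p 0.0768, 0.0934 and 0.0982). It was also lost with the compared groups alone, with the replicate number as a block and by glmTreat. rps27.1 and rps27.2, of like sequence, had means of 2942 and 2464 counts per library against 651 for rps27l, and the sources used here do not say how reads shared between them were counted.

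Of the death genes, bbc3 (ENSDARG00000069282) encodes Puma, which binds and blocks the survival proteins of the Bcl2 family. It stood at 6.29, 5.10 and 3.81 CPM in wild type, at 21.1, 17.9 and 27.9 CPM in the kdm4aa knockout, and at 16.2, 9.98 and 18.8 CPM in the kdm4ab knockout. Every knockout library was above every wild-type library, and the kdm4aa and kdm4ab knockouts overlapped. Against wild type, bbc3 was up by 2.14 with kdm4aa lost (SE 0.321, adjusted p 0.00539) and by 1.56 with kdm4ab lost (SE 0.315, adjusted p 0.0128). Without kdm4ab knockout replicate 2 these values were 2.15 and 1.79. The kdm4ab call was lost without wild-type replicate 2 or 3 (adjusted p 0.0534 and 0.0651), and with the compared groups alone.

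pmaip1 (ENSDARG00000089307) encodes Noxa, a death protein of the same family as Puma. It stood at 5.93, 5.98 and 5.74 CPM in wild type, at 6.75, 5.30 and 7.47 CPM in the kdm4aa knockout, and at 15.7, 27.4 and 11.4 CPM in the kdm4ab knockout. The kdm4aa knockout spanned the narrow wild-type range, and the kdm4ab knockout lay above both. The kdm4aa knockout differed from wild type by 0.15 (95% interval −0.60 to 0.89, adjusted p 0.881), and 0.15 (95% interval −0.21 to 0.51) without kdm4ab knockout replicate 2. pmaip1 rose in the kdm4ab knockout by 1.62 (SE 0.335, adjusted p 0.0138), and by 1.21 without replicate 2 (adjusted p 3.6e-05). With wild-type replicate 1, 2 or 3 left out it was not called (adjusted p 0.0651, 0.0561 and 0.0687), nor with the compared groups alone.

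**Figure D2:**
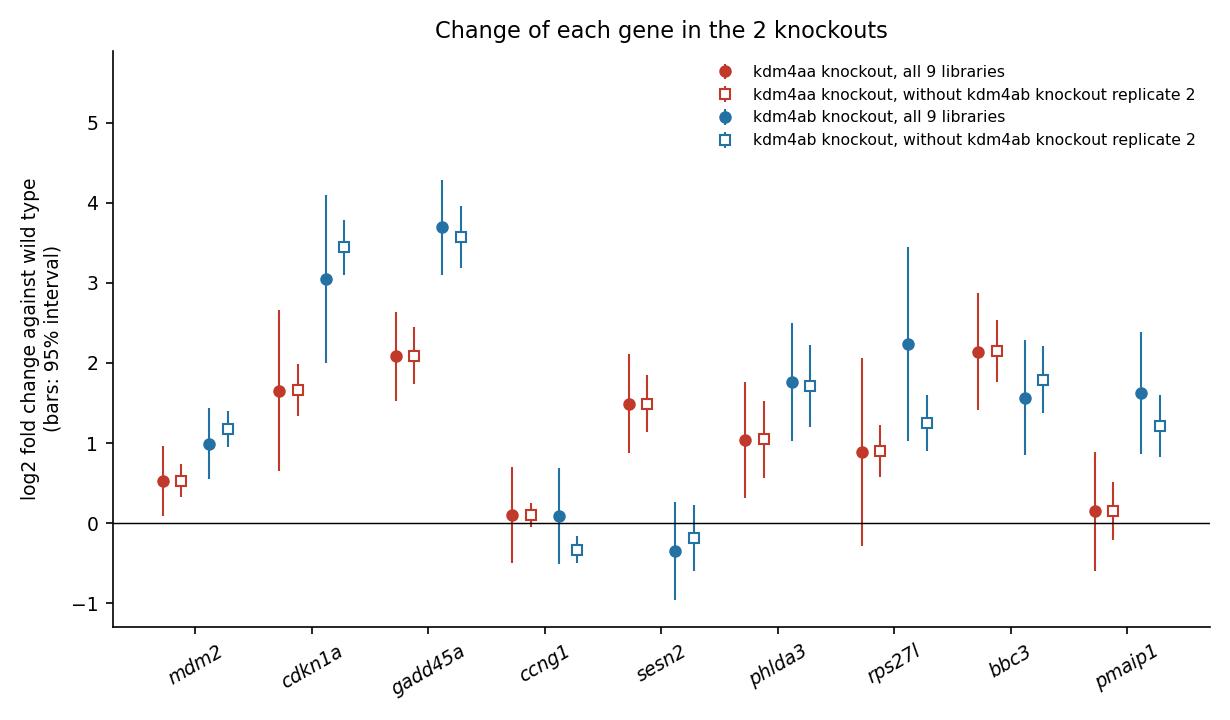
Log2 fold change against wild type (vertical axis) for each gene, in the kdm4aa knockout (red) and the kdm4ab knockout (blue), with bars for the 95% interval. Filled circles use all 9 libraries and open squares leave out kdm4ab knockout replicate 2. bbc3 lies high in both knockouts, sesn2 above 0 in the kdm4aa knockout and pmaip1 in the kdm4ab knockout, and ccng1 changes sign in the kdm4ab knockout without replicate 2.

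The knockouts were then compared with each other, which tests whether their responses differ. Of the 9 genes, sesn2 was higher in the kdm4aa knockout, and gadd45a and pmaip1 were higher in the kdm4ab knockout. Over all genes, 18.2% were called in this comparison, 8.81% higher and 9.39% lower in the kdm4aa knockout. sesn2 averaged 19.9 ± 4.05 CPM (SD, n = 3) in the kdm4aa knockout against 5.57 ± 1.58 CPM in the kdm4ab knockout, a log2 difference of 1.84 (SE 0.273, adjusted p 0.00326). gadd45a averaged 17.2 ± 3.73 CPM against 52.8 ± 8.44 CPM, a difference of −1.61 (SE 0.238, adjusted p 0.00315). pmaip1 averaged 6.50 ± 1.1 CPM against 18.2 ± 8.28 CPM, a difference of −1.48 (SE 0.333, adjusted p 0.0182). Without kdm4ab knockout replicate 2 the 3 differences were 1.68 (adjusted p 1.97e-06), −1.48 (adjusted p 1.22e-06) and −1.06 (adjusted p 0.00012) in the same order. In all 3 genes the ranges of the knockouts did not overlap, which adds no support because the same values gave the calls. Among the 9 genes, 1 was higher and 4 were lower in every kdm4aa knockout library than in any kdm4ab knockout library. Over all genes, the ranges of 40.4% did not overlap. The pmaip1 call on all libraries was lost without any 1 of the kdm4aa knockout replicates 1, 2 and 3 (adjusted p 0.0712, 0.082 and 0.0608). It was also lost with the compared groups alone, with the replicate number as a block and by glmTreat.

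For cdkn1a the difference between the knockouts was −1.39 (SE 0.434, adjusted p 0.058), and it was called at −1.78 without kdm4ab knockout replicate 2 (adjusted p 4.95e-08). In that fit mdm2 at −0.64 (adjusted p 7.69e-05) and phlda3 at −0.67 (adjusted p 0.0258) were also lower in the kdm4aa knockout, and ccng1 was higher at 0.43 (adjusted p 0.000186). With gadd45a and pmaip1 this made 5 genes lower and 2 higher, where 26.8% and 26.0% of all genes were. By the test against a 1.5-fold change, 4 of the 9 passed, and 24.4% of all genes. bbc3 was not called between the knockouts in either fit, at 0.58 with all libraries (95% interval −0.13 to 1.28, adjusted p 0.24) and at 0.36 without replicate 2 (95% interval −0.05 to 0.76, adjusted p 0.131). rps27l was not called either, at −1.34 with all libraries (95% interval −2.52 to −0.16, adjusted p 0.112) and −0.36 without replicate 2 (adjusted p 0.0758).

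**Figure D3:**
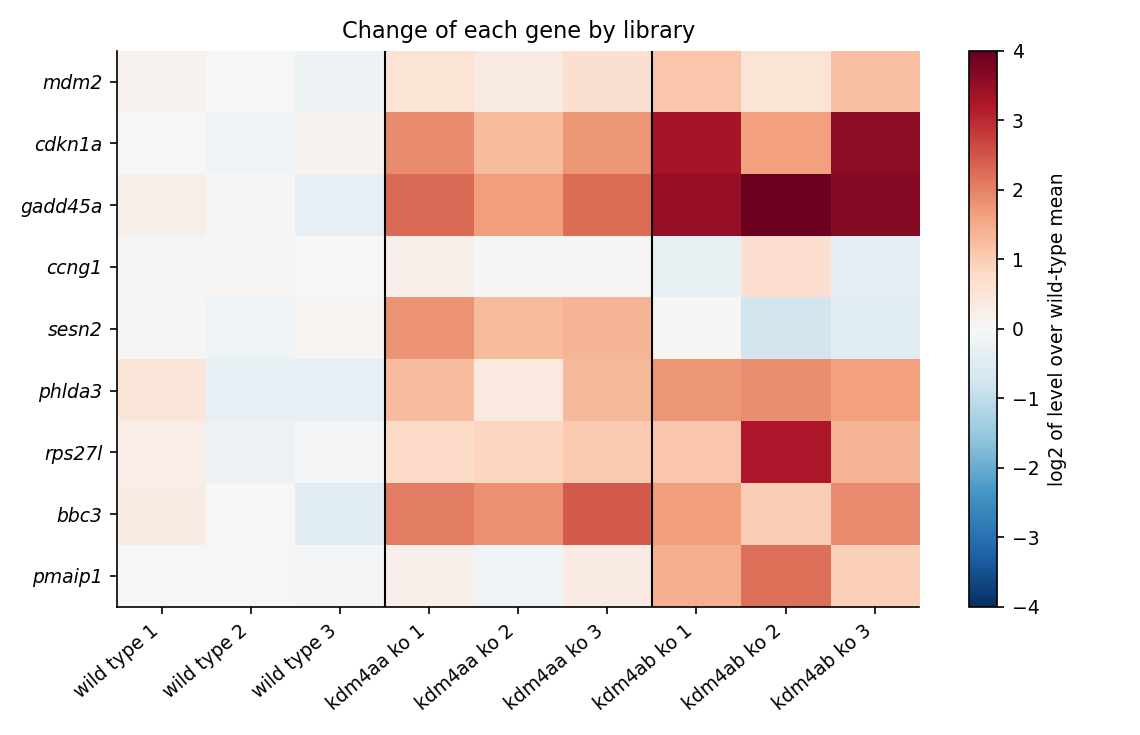
Each cell is the log2 of a gene's level in 1 library over its mean in the 3 wild-type libraries, red above and blue below. sesn2 is red in the kdm4aa knockout libraries, cdkn1a and gadd45a are deepest in the kdm4ab knockout, and replicate 2 of that group departs in cdkn1a, ccng1 and rps27l.

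Within groups the genes did not all move alike. In the kdm4aa knockout, replicate 2 was the lowest of its group in 8 of the 9 genes, while it was the lowest library for 34.6% of all genes tested. The exception was rps27l, which was lowest in replicate 1. In the kdm4ab knockout, replicate 2 was the lowest of its group for mdm2, cdkn1a, sesn2 and bbc3, and the highest for gadd45a, phlda3, ccng1, pmaip1 and rps27l. That library was the lowest of its group for 60.3% of all genes and the highest for 34%. Whether the state of its RNA moved these values was not tested.

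The genes with a pattern most like that of mdm2, by the Pearson correlation of log2 CPM over the 8 libraries without kdm4ab knockout replicate 2, were si:ch211-239d6.2 (0.99), mt1x (0.989), slc25a15 (0.986), pdia6 (0.985) and si:ch211-239d6.4 (0.984). Of these, si:ch211-239d6.4 reached the minimum mean of 5 CPM over all 9 libraries only through kdm4ab knockout replicate 2. The 8 libraries fall into 3 genotypes, so these values mostly follow the steps between groups. pdia6, which encodes a chaperone of the endoplasmic reticulum that forms disulfide bonds, stood at 144, 140 and 139 CPM in wild type, at 187, 183 and 202 CPM in the kdm4aa knockout, and at 262, 292 and 283 CPM in the kdm4ab knockout.

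Other genes of the p53 pathway were taken from lists made for this purpose. Over all genes, 4.33% were called higher and 4.55% lower in the kdm4aa knockout, and 8.97% and 8.04% in the kdm4ab knockout. Of 14 tested regulators of p53, edgeR's quasi-likelihood test called 0 higher and 1 lower in the kdm4aa knockout. Before adjustment 3 were higher and 1 lower at p below 0.05. DESeq2 gave an adjusted p for 16 regulators and called 2 higher and 1 lower, and it called 13.7% of all genes. In the kdm4ab knockout 2 rose and 2 fell, and the median log2 fold change of the list was 0.13 in either knockout. tp63, of the p53 family and needed for the epidermis, fell in the kdm4aa knockout from 7.57 ± 0.564 to 2.41 ± 0.196 CPM (log2 −1.65, SE 0.257, adjusted p 0.00654). It also stood below wild type in the kdm4ab knockout, at 3.57 ± 0.383 CPM. The damage kinase gene chek2 rose in the kdm4ab knockout from 29.4 ± 0.460 to 49.1 ± 1.29 CPM (log2 0.74, adjusted p 0.00564), with no overlap between the groups. The acetyltransferase gene kat5b fell from 150 ± 7.73 to 94.2 ± 13.8 CPM (log2 −0.67, adjusted p 0.0133). Without kdm4ab knockout replicate 2, 15 regulators were tested. The kdm4aa knockout had 4 called higher and 3 lower, against 23.3% and 23.5% of all genes. The kdm4ab knockout had 8 called higher and 4 lower, against 25.3% and 24.2% of all genes.

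Of 15 other arrest targets, 1 rose and 1 fell in the kdm4aa knockout, and 2 rose and 3 fell in the kdm4ab knockout, with medians of 0.22 and −0.05. A gadd45g gene (ENSDARG00000019417), of the same family as gadd45a, rose from 1.01 ± 0.319 to 7.96 ± 0.758 CPM with kdm4aa lost (log2 2.98, SE 0.559, adjusted p 0.0147). tob1b, of a family that slows cell division, fell from 162 ± 8.37 to 97.8 ± 4.46 CPM (log2 −0.73, adjusted p 0.0223). In the kdm4ab knockout tob1b also stood below wild type, at 99.97 ± 17.6 CPM. The genes with the smallest p in the kdm4ab knockout fell. cdkn1cb, a relative of cdkn1a, fell from 19.8 ± 2.41 to 6.47 ± 0.977 CPM (log2 −1.61, adjusted p 0.00158). A gadd45b gene (ENSDARG00000027744) fell from 24.6 ± 4.89 to 8.59 ± 1.99 CPM (log2 −1.52, adjusted p 0.00468). Other relatives of gadd45a, named after their values were seen, were not called lower. The gadd45g gene above rose there to 7.19 ± 5.63 CPM (log2 2.83, adjusted p 0.0114), and to 3.94 CPM without replicate 2, and another gadd45b gene (ENSDARG00000013576) had a mean of 127 ± 41.6 CPM there against 101 ± 13.6 CPM in wild type (adjusted p 0.353). sesn1 and sesn3, relatives of sesn2, were also named after their values were seen. For sesn3 the mean was 12.8 ± 6.01 CPM in wild type and 34.5 ± 9.76 CPM with kdm4ab lost, with no overlap. Over all genes, 17.9% were higher in every kdm4ab knockout library than in any wild-type library. sesn1 averaged 12.2 CPM in wild type, against 48.3, 0 and 64.1 CPM in kdm4ab knockout replicates 1, 2 and 3. With kdm4aa lost, sesn1 averaged 34.3 CPM and sesn3 18.9 CPM. On 8 libraries, 5 of the 15 arrest targets were higher and 2 lower in the kdm4aa knockout, against 23.3% and 23.5% of all genes. The kdm4ab knockout had 5 higher and 5 lower, against 25.3% and 24.2% of all genes.

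Of 17 other death targets, edgeR's quasi-likelihood test called 0 in the kdm4aa knockout. At an unadjusted p under 0.05 the count was also 0, and DESeq2 called 0 as well. Without kdm4ab knockout replicate 2, 1 was higher and 3 were lower, against 23.3% and 23.5% of all genes. The genes named next are 2 of the 3 lower ones. In that fit perp, a membrane protein of cell junctions that p53 induces in mammals, was lower at 7.70 against 19.6 CPM (log2 −1.35, adjusted p 5.51e-07), with no overlap. perp stood lower still in the kdm4ab knockout, at 2.14 ± 1.86 CPM, and at 3.21 CPM without replicate 2. pidd1, which encodes a death domain protein that activates a caspase, was lower in the kdm4aa knockout in the same fit, at 17.1 against 26.0 CPM (log2 −0.60, adjusted p 0.000239). In the kdm4ab knockout pidd1 stood at 16.0 ± 9.46 CPM, and at 21.4 CPM without replicate 2. With all libraries, 0 of the 17 were called higher and 1 lower in the kdm4ab knockout. Before adjustment 2 were higher and 4 lower there at p below 0.05. The gene called was tnfrsf1a, a death receptor gene with a mean of only 0.503 CPM in wild type. It had 2 counts in all in the kdm4ab knockout against 62 in wild type, a ratio of rates of 30.3 (95% exact interval 8.05 to 256, counting error only, adjusted p 0.0205). The medians of this list were −0.11 and 0.22, and the latter was −0.28 without replicate 2. In that fit of the kdm4ab knockout 5 were higher and 8 lower, against 25.3% and 24.2% of all genes.

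Of 19 repair and metabolism targets, 1 rose and 1 fell in each knockout, with medians of 0.18 in the kdm4aa and 0.09 in the kdm4ab knockout. triap1, which in mammals protects cells from p53-dependent death, rose from 9.27 ± 0.402 CPM to 21.4 ± 1.2 CPM with kdm4aa lost (log2 1.21, SE 0.273, adjusted p 0.0299). It also rose in the kdm4ab knockout, to 20.7 ± 8.31 CPM (log2 1.16, SE 0.273, adjusted p 0.0226), and stood at 15.95 CPM there without replicate 2. prkaa1, a subunit of the energy sensor AMPK, fell in the kdm4aa knockout from 155 ± 14.8 to 92.0 ± 8.6 CPM (log2 −0.75, adjusted p 0.0121). It stood at 124 ± 9.61 CPM in the kdm4ab knockout. The translesion polymerase polh fell in the kdm4ab knockout from 19.7 ± 5.94 to 10.4 ± 1.66 CPM (log2 −0.92, adjusted p 0.0333). In the kdm4aa knockout polh stood above wild type, at 34.6 ± 2.91 CPM. On 8 libraries, 6 of 20 were higher and 4 lower in the kdm4aa knockout, against 23.3% and 23.5% of all genes. The kdm4ab knockout had 5 higher and 6 lower, against 25.3% and 24.2% of all genes.

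**Figure D4:**
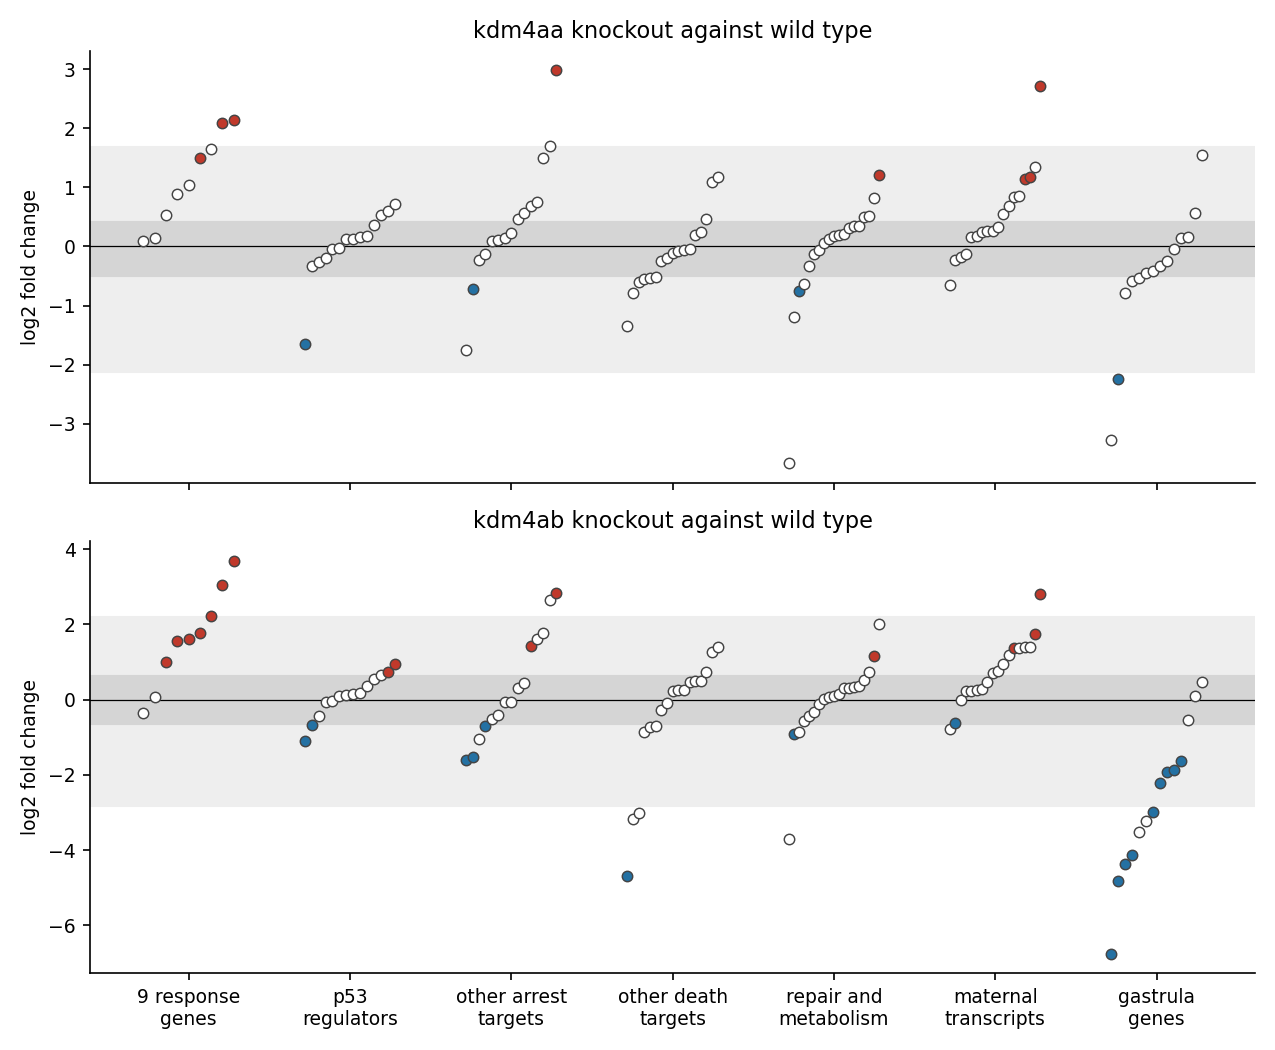
Log2 fold change (vertical axis) of each tested gene in the kdm4aa knockout (top) and the kdm4ab knockout (bottom), in the fit of all 9 libraries, by list. Red points were called higher, blue called lower and white not called. The dark band holds the middle 50% and the light band the middle 90% of all genes tested. The 9 response genes lie mostly above the dark band in both panels, while most other p53 genes lie in or near it and gastrula genes lie low in the kdm4ab knockout.

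Markers of embryonic stage moved with genotype beside these genes. In wild type, 18 of 18 maternal transcripts and 13 of 16 gastrula genes reached 1 CPM, against 3 of 9 segmentation genes and 0 of 15 genes of later tissues, whose highest level was 0.403 CPM (actc1b of muscle). The summed level of the gastrula genes was 638 to 872 CPM in wild type, 559 to 617 CPM in the kdm4aa knockout and 201 to 261 CPM in the kdm4ab knockout. Of 14 tested gastrula genes, 1 fell in the kdm4aa knockout and 9 fell in the kdm4ab knockout, with medians of −0.38 and −2.60. Over all genes, 4.55% and 8.04% were called lower in these comparisons. On 8 libraries, 1 of 16 was higher and 7 lower in the kdm4aa knockout, against 23.3% and 23.5% of all genes. The kdm4ab knockout had 0 higher and 13 lower, against 25.3% and 24.2% of all genes. tbx16, a mesoderm factor, had the highest level of the list in wild type and weighs most in its sum. It stood at 376 CPM in wild type, at 259 CPM in the kdm4aa knockout and at 57.4 CPM in the kdm4ab knockout without replicate 2. The median level over the list was 22.3, 21.9 and 6.75 CPM in the same order.

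The summed level of the maternal list was 5963 to 6096 CPM in wild type and 7282 to 8464 CPM in the kdm4aa knockout. It was 5569, 10430 and 5728 CPM in replicates 1, 2 and 3 of the kdm4ab knockout, so that replicate 2 was above and the other 2 were below every wild-type library. The sum leans on the genes of highest level. nanog and pou5f3 had means of 2405 and 1105 CPM in wild type, and of 1716 and 791 CPM in the kdm4ab knockout without replicate 2. The median over the list went the other way, from 57.8 CPM in wild type to 106 CPM in the kdm4ab knockout without replicate 2. It was 100 CPM in the kdm4aa knockout. Of the 18 maternal genes, 3 rose in the kdm4aa knockout, where 4.33% of all genes did. In the kdm4ab knockout 3 rose and 1 fell, against 8.97% and 8.04% of all genes. On 8 libraries 10 were higher and 2 lower in the kdm4aa knockout, against 23.3% and 23.5% of all genes. The kdm4ab knockout then had 7 higher and 3 lower, against 25.3% and 24.2% of all genes. The segmentation list summed to 94.3 to 108 CPM in wild type, 122 to 138 CPM in the kdm4aa knockout and 92.5 to 125 CPM in the kdm4ab knockout. In wild type and the kdm4aa knockout dld made up most of this sum, with means of 96.9 and 124 CPM. No other gene of the list had a mean above 2.43 CPM in these groups, so the sum describes dld rather than the list. The part of embryonic stage in the levels of the p53 response genes was not tested.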

How the data were processed

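Poly-A RNA libraries of zebrafish embryos were sequenced on an Illumina platform, per the labels' protocols. The authors deposited whole-number counts per Ensembl gene and library, not normalized. The submitters' processing notes name the builds GRCz11 and danRer11. No source used here gives the aligner, counting tool, annotation or strand setting, so near-identical copies, overlapping genes and antisense genes are uncertain. Titles gave each sample's group and replicate number, and each column was matched to its sample by the description.

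Counts were filtered with filterByExpr, scaled by TMM and fitted in edgeR 4.0.16 (R 4.3.3) by the two-sided quasi-likelihood F-test, with 1 mean per group and all 9 libraries (18998 genes tested), and again without kdm4ab knockout replicate 2 (19882 genes). Benjamini-Hochberg adjustment ran across all tested genes, with a threshold of 0.05. CPM were computed here from the TMM-scaled libraries, as mean ± SD over n = 3 unless stated otherwise. SE were computed as the absolute log2 value over the square root of F, and 95% intervals from the t distribution with edgeR's degrees of freedom. log2 CPM for correlations used a prior count of 2. Where only 2 counts were left in a group, an exact 95% interval of the ratio is given. DESeq2 1.42.0, RLE scaling, no filter, a replicate block, the compared groups alone, a 1.5-fold threshold (glmTreat) and leaving out each library were the alternatives. The fit was also run on simulated counts with 1 spread shared by all genes and libraries. They held no library that stands apart, so that run cannot speak to kdm4ab knockout replicate 2.

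Replicates of a group differed by more than sampling noise in every pair (chi-square of 9.58 per gene or more). The labels do not say whether replicates are separate clutches. The p-values therefore capture spread among these samples alone, and that spread may be technical. Symbols were looked up by Ensembl identifier for 29201 of 32520 genes, in a table that writes many of them in capitals, here printed in lower case. The 9 genes and all lists were chosen with earlier results of these data known. The rule for naming genes took every member, mdm4, and up to 4 called genes of each other p53 list in the kdm4aa knockout and 2 in the kdm4ab knockout by smallest p. Where all 9 libraries called none, the fit without kdm4ab knockout replicate 2 was used. It also took the genes of highest level in the stage lists, of which those a result turns on are printed, the targeted genes and the 5 genes most like mdm2 with a mean of at least 5 CPM over all 9 libraries. Some genes that this rule takes are not reported here.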

Additional observations from a re-analysis of the deposited data

Results flagged for a closer look

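Of the 9 genes, 3 differed between the knockouts by the test of that difference itself, which called 18.2% of all genes. For gadd45a the kdm4aa minus kdm4ab difference was −1.61 on the log2 scale (adjusted p 0.00315, edgeR's quasi-likelihood test), as it rose by 2.08 in the kdm4aa knockout and by 3.70 in the kdm4ab knockout. For sesn2 it was 1.84 (adjusted p 0.00326), with log2 fold changes against wild type of 1.49 and −0.35. For pmaip1 it was −1.48 (adjusted p 0.0182), with fold changes of 0.15 and 1.62 on the log2 scale. The wild-type libraries enter these differences only through the filter, the scaling and the shared estimate of spread. In each of the 3 genes all libraries of one knockout lay above all libraries of the other. That adds no support, because the same values gave the calls, and the ranges of 40.4% of all genes did not overlap.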

How the results depend on the processing

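gadd45a in all 3 comparisons, bbc3 in the kdm4aa knockout, cdkn1a in the kdm4ab knockout and sesn2 between the knockouts kept their direction and side of the threshold under all 18 alternatives. Over the 27 results for single genes, 417 alternative values kept both, 34 gained a call, 28 lost one and 7 turned sign. All 7 were of ccng1. Against wild type in the kdm4ab knockout it turned to −0.35 with DESeq2 without replicate 2, −0.33 without replicate 2 in edgeR, −0.33 with a replicate block there and −0.33 by glmTreat there. Its kdm4aa minus kdm4ab value turned to −0.03 without kdm4aa knockout replicate 1 and to −0.13 and −0.15 without kdm4ab knockout replicate 1 or 3. With 1 library left out its values ran from −0.33 to 0.24 against wild type in the kdm4ab knockout and from −0.15 to 0.43 between the knockouts.

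For the kdm4aa knockout against wild type, 1687 genes were called. With DESeq2 the count was 3017, with DESeq2 without kdm4ab knockout replicate 2 it was 9344, with the compared groups alone 9290, by glmTreat 717 (3505 on 8 libraries), and leaving out 1 library gave 569 to 9306. For the kdm4ab knockout the 3232 genes became 5251, 9889, 1092 and 1591 in the same order, and 1219 to 9848. Between the knockouts 3457 became 5351, 10515, 1259 and 1663, and 1462 to 10499. Of the 9 genes, 3 called in the kdm4aa knockout became 5 with DESeq2, which called 13.7% of all genes. They became 7 without replicate 2 in DESeq2, which called 41.2% of all genes, and 7 with the compared groups alone (9290 genes called). By glmTreat on 8 libraries they became 6 (3505 of 19882 genes called), and with 1 library left out 2 to 7 (569 to 9306 genes called). In the kdm4ab knockout 7 became 3 with the compared groups alone and 2 to 8 with 1 library left out, 2 of them without wild-type replicate 3 and 4 without wild-type replicate 2. Between the knockouts 3 became 6 with DESeq2 without replicate 2, which called 46.4% of all genes, and 2 to 7 with 1 library left out. The cause of these shifts was not tested, other than that kdm4ab knockout replicate 2 sets the highest counts by its absence.

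No pairing by replicate number was seen. Same-numbered libraries correlated between −0.05 and 0.08 in their deviations from the group means, and other pairs between −0.08 and 0.06. The kdm4ab knockout means include replicate 2, which stands apart and enters all deviations of that group, so these values cannot exclude a pairing. With the replicate number as a block, 765, 1807 and 2012 of 18998 genes were called in the 3 comparisons. On 8 libraries these counts were 9127, 9417 and 10009 of 19882 genes. In that fit 7 of the 9 genes were called in the kdm4aa knockout and 7 between the knockouts. The block on 9 libraries lost the calls of rps27l in the kdm4ab knockout and of pmaip1 between the knockouts.

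Counts of 128 or more in every library keep counting error small for these genes. The spread among 3 libraries, and in the kdm4ab knockout the library that stands apart, limit the precision.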
